A study of Mus musculus with 10 samples.

Results

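The keratin genes described here are *Krt7*, *Krt8*, *Krt18*, *Krt19*, *Krt20*, *Krt5*, *Krt14*, *Krt23* and *Krt10*. They were chosen by name from the gene table, 9 of the 51 genes whose symbol is Krt and a number, and of 47069 genes in all. Keratins are the intermediate filament proteins of epithelial cells. A filament is built from pairs of an acidic type I chain and a basic type II chain, so cells make both types together. Simple epithelium such as the gut lining is known for Krt8 (type II) with Krt18, Krt19 and Krt20 (type I), and Krt20 marks the differentiated cells near the surface. Krt7 is a type II chain of ducts and other simple epithelia. Krt5 (type II) and Krt14 (type I) are the chains of basal cells in stratified epithelium, and Krt10 (type I) is that of the layers above them. Krt23 is a type I chain.

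RNA-seq was performed on mouse intestinal organoids after a culture of 50 days. The 10 libraries form 5 groups of 2. All groups were C57BL/6 organoids carrying *Lgr5-EGFP-CreERT2* and, from the methods of the study, floxed *Ppp2r1a* (flox/flox), grown with Noggin, EGF and R-spondin 1. The groups were control (saline), DMBA, tamoxifen labelled "Dosage-sensitive TAM (short)" (TAM short), its counterpart labelled "(Long)" (TAM long), and DMBA with tamoxifen (DMBA+TAM). DMBA is a chemical carcinogen, and tamoxifen activates the Cre enzyme, which in this line is made only in Lgr5+ crypt stem cells and their progeny inherit the deletion. The labels do not define dosage-sensitive, short or long, nor the DSS that begins the library names of both TAM groups. The DMBA libraries are labelled long as well, and the labels do not say whether the replicates came from separate mice or cultures. The p-values therefore measure only the spread between these libraries, which may be technical.

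The question was how the keratins differed between DMBA, loss of PP2A after tamoxifen, and both together. The 8 libraries of control, DMBA, TAM short and TAM long held 8828247 to 10923673 counted reads, and the DMBA+TAM libraries held 1592366 and 1915270. *Ppp2r1a*, the targeted gene, was at 123 to 129 normalized CPM (read counts relative to the library total, with TMM scaling) in control, 153 to 167 in DMBA, 131 to 147 in TAM short, 157 to 169 in TAM long and 129 to 133 in DMBA+TAM. It was called higher than control in DMBA (log2 fold change 0.34, adjusted p = 0.0291) and TAM long (0.37, adjusted p = 0.0213), by edgeR. In DMBA+TAM it was called lower than in TAM long (-0.31, adjusted p = 0.0403). It was not called there against DMBA (-0.29, adjusted p = 0.0575) or control (0.06, adjusted p = 0.687). These counts take in all exons, so they do not show whether the floxed exons were lost. Library names hold an S in control and TAM short and an L in DMBA and TAM long, and sums of gut segment markers followed these letters. The names of the DMBA+TAM libraries begin with Lgr5, and their L was not read as such a letter. A sum of 6 small intestine genes ran from 14024 to 23117 normalized CPM in control and TAM short and from 297 to 934 in DMBA and TAM long, while 6 colon genes ran from 203 to 312 and from 2851 to 12133. Single small intestine genes also parted TAM short from control. *Fabp6*, of the ileum, was at 1.53 ± 1.83 normalized CPM in control and 8406 ± 791 in TAM short (SD, n = 2), *Lct*, lactase, at 1417 ± 195 and 1.97 ± 1.53, and *Apoa4* at 2050.5 ± 598 and 236 ± 48.9. Gut segment, or position along it, and treatment cannot be told apart where DMBA, TAM long or TAM short is set against control. A sum of 10 epithelial genes without keratins, among them *Epcam*, *Cdh1*, *Vil1* and *Lgals4*, was 8729.8 to 15112 normalized CPM in the 8 libraries and 15.9 and 18.5 in DMBA+TAM, where 6 fibroblast genes rose to 30614 and 31523 from at most 2009. The labelled tissue, intestinal organoid epithelium, was thus nearly absent from the RNA of both DMBA+TAM libraries. In bulk samples, fewer epithelial cells and less keratin RNA in each cell cannot be told apart.

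All coordinates are those of GRCm38. The type II genes lie on chromosome 15, *Krt7* at 101411043 to 101430313 (plus strand), *Krt8* at 101996711 to 102004342 (minus strand) and *Krt5* at 101707070 to 101712891 (minus strand). *Krt18* is the exception among the type I genes, at 102028216 to 102032026 on the plus strand of chromosome 15. It is 23873 bases from *Krt8*, and these neighbours point away from each other. The other type I genes lie on the minus strand of chromosome 11: *Krt10* at 99385254 to 99389364, *Krt20* at 99428403 to 99438150, *Krt23* at 99477974 to 99493137, *Krt19* at 100140810 to 100148665 and *Krt14* at 100203162 to 100207548. Noncoding genes of the opposite strand overlap *Krt7*, *Krt8*, *Krt10* and *Krt5*, and since counting by strand is not stated, their reads cannot be told apart. Of all 50-base stretches in the transcripts of *Krt8*, 29.7% also occur in those of other genes, 26.9% in the pseudogene *Krt8-ps*. For *Krt14* the share is 13.9% (mostly *Krt16*) and for *Krt5* 12.2% (mostly *Krt6a*). Over all 10 libraries *Krt16* had 9 reads and *Krt6a* 0, and no count of *Krt8-ps* was available. For the other genes it is at most 2.37%, so *Krt8*, *Krt14* and *Krt5* are the less certain counts.

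RefSeq promoter sequences are shown for 4 genes whose levels moved apart between the groups below: *Krt8*, which was not called different in DMBA or TAM long, *Krt18* and *Krt7*, which were higher there, and *Krt20*, which was lower. These windows (GRCm38.p6) matched 8 of the 9 genes, all but *Krt19*. Each sequence is read 5′ to 3′ on the strand of the gene and lies within 250 bases before its RefSeq start, stopping short of any exon of its GENCODE coding transcripts. The RefSeq starts of *Krt7* and *Krt14* lie inside the genes as listed in the table, so their windows are not upstream of the listed starts. The windows were searched on both strands for TATAAA (the TATA box), GGGCGG (a GC box), TGANTCA (an AP-1 motif) and TTTAT (a motif of Cdx factors), and capitals mark matches of the first 3. Some TTTAT matches overlap a TATAAA match on the other strand.
*Krt8* (chr15:102004483-102004592, minus strand): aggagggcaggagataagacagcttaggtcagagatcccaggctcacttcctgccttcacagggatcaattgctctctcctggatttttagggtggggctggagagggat
*Krt18* (chr15:102027966-102028179, plus strand): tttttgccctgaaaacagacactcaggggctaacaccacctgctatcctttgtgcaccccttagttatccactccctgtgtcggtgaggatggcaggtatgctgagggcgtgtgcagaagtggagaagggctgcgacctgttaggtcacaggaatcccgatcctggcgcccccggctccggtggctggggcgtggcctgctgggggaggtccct
*Krt7* (chr15:101412153-101412401, plus strand): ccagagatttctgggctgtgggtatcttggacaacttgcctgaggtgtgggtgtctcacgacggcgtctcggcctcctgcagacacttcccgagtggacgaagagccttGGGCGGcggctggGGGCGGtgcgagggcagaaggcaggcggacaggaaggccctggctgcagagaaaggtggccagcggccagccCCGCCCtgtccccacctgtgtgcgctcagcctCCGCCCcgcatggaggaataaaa
*Krt20* (chr11:99438154-99438403, minus strand): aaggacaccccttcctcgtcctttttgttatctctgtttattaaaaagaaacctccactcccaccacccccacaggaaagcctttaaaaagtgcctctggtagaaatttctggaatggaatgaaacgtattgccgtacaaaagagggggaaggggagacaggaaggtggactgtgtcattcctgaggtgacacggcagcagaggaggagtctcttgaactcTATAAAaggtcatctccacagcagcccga

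*Krt7* had 4 matches of GGGCGG, 2 on each strand, and *Krt20* had TATAAA from 29 to 24 bases before its start. *Krt10* also had TATAAA, from 26 to 21 bases before its start. The full windows of *Krt8*, *Krt18* and *Krt14* held none of the 4 motifs, and none of the 8 windows held TGANTCA. Of 32851 mouse promoter windows of this length, 12.4% held TATAAA, 32.7% GGGCGG, 6.75% TGANTCA and 37.3% TTTAT. These matches describe letters only.

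Outside DMBA+TAM, the 5 keratins of simple epithelium made up nearly all of the keratin RNA. Per length, on the deposited FPKM scale (read fragments per kilobase of gene, scaled to library size), the order of levels in control was *Krt8* at 2574 ± 32.5 (SD, n = 2), *Krt19* at 1506 ± 124, *Krt20* at 1422 ± 75.5, *Krt18* at 140 ± 1.04 and *Krt7* at 33.1 ± 4.38. *Krt19* and *Krt20*, neighbours in this order, did not differ beyond their spread, and the other steps among these 5 genes were larger than the spread. The remaining genes were far lower in control, with *Krt10* at 1.77 ± 0.0698 FPKM, *Krt23* at 1.32 ± 0.116, *Krt14* at 0.105 ± 0.0516 and *Krt5* at 0.0222 ± 0.0314, the last pair from at most 2 reads in a library. In the 8 libraries the 9 genes took 0.909% to 1.24% of all counted reads and 99.7% to 99.9% of the reads of all 51 keratin genes. In DMBA+TAM they took 0.00396% and 0.0024% of all counted reads, and 70.8% and 63.9% of the reads of all 51. There *Krt10* alone held 10.5% ± 1.81 of the summed FPKM of the 9 genes (SD, n = 2).

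The order of the group means of these 5 genes was the same in control, DMBA, TAM short and TAM long on the deposited FPKM, but the distances changed. With the gene lengths listed in the table, *Krt20* came above *Krt19* in control and TAM short and below it in DMBA and TAM long. In DMBA, *Krt8* (3151 ± 496 FPKM) and *Krt19* (2757 ± 674) overlapped in spread, and *Krt18* (441 ± 64.9) came near *Krt20* (659 ± 146). TAM long had *Krt8* at 3309 ± 211 FPKM, *Krt19* at 2643 ± 227, *Krt20* at 847 ± 88.0 and *Krt18* at 361 ± 114. In TAM short, *Krt8* was at 3515 ± 129 FPKM, *Krt19* at 2232 ± 254, *Krt20* at 1737 ± 112 and *Krt18* at 176 ± 3.94. *Krt7* was the lowest of the 5 in all of these groups, at 67.6 ± 3.44 FPKM in DMBA, 46.5 ± 4.57 in TAM short and 63.2 ± 11.4 in TAM long. In DMBA+TAM, *Krt19* (8.73 ± 0.315 FPKM) and *Krt8* (6.29 ± 1.94) led, followed by *Krt10* at 2.20 ± 0.286 and *Krt20* at 1.93 ± 2.34, which did not differ beyond their spread.

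**Figure D1:**
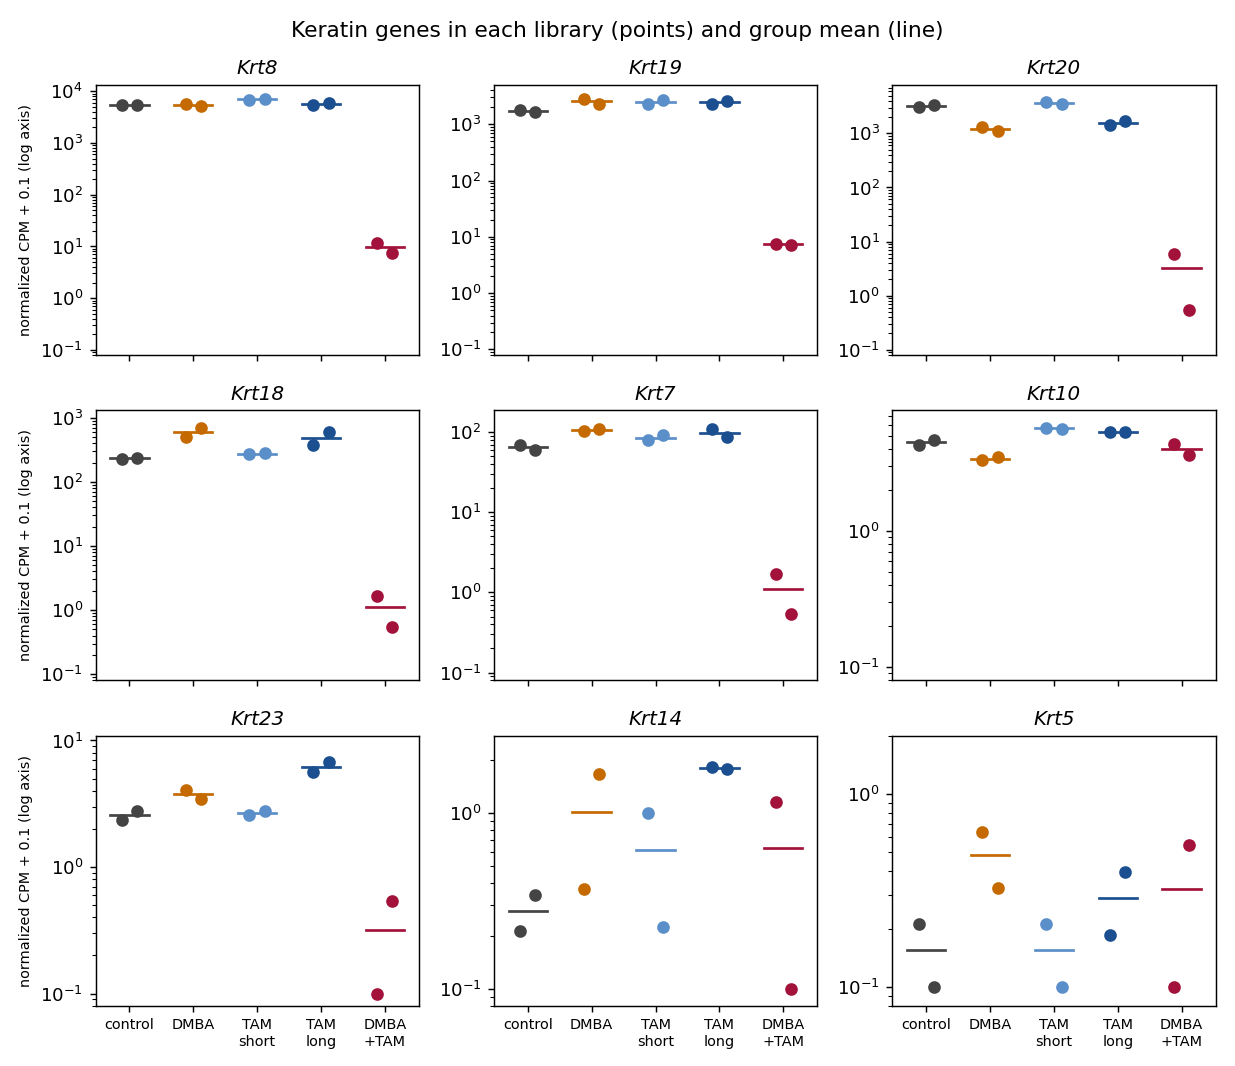
Normalized CPM plus 0.1 of the 9 keratin genes in each library, on a log axis with its own range for each gene, with 2 points for each group and a line at the group mean. In DMBA+TAM the points of *Krt8*, *Krt19*, *Krt20*, *Krt18*, *Krt7* and *Krt23* lie below those of the other 4 groups, while those of *Krt10* lie among them.

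As a share of the summed keratin FPKM, *Krt8* stayed at 45.3% ± 0.0707 in control, 44.5% ± 0.919 in DMBA, 45.6% in both TAM short libraries and 45.8% ± 1.13 in TAM long (SD, n = 2). The shares of the type I genes moved around it. *Krt20* took 25.1% ± 1.77 in control and 22.6% ± 2.26 in TAM short, but 9.28% ± 0.417 in DMBA and 11.7% ± 0.141 in TAM long. *Krt19* took 26.5% ± 1.84 and 28.9% ± 2.26 in the first pair of groups, and 38.7% ± 2.69 and 36.5% ± 0.0707 in the second. *Krt18* was at 2.46% ± 0.0212 and 2.29% ± 0.0354, against 6.42% ± 2.06 and 4.95% ± 1.15. The groups of each pair did not overlap the other pair for these 3 genes, and no test was run on the shares. These shares need no scaling between libraries, but they do depend on gene length. The FPKM of *Krt19* rest on 982 bases and those of *Krt7* on 1639, where the table lists 1576 and 4094. With the listed lengths *Krt20* took 27.9% in control and 10.9% in DMBA, and *Krt19* took 18.4% and 28.4%.

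**Figure D2:**
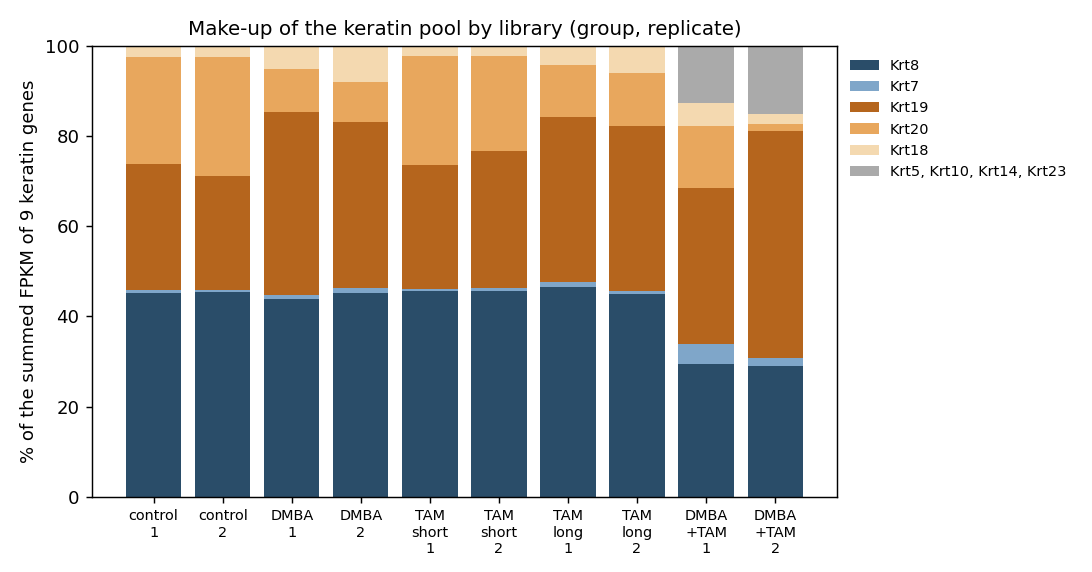
Share of each keratin gene in the summed FPKM of the 9 genes (vertical axis, %), a bar for each library. *Krt20* is near 25.1% in control and 9.28% in DMBA, and *Krt8* keeps a share near 45% except in DMBA+TAM, where it is 29.2%.

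DMBA+TAM had less RNA of 6 of the 8 tested keratins than control, and none of the 8 rose. *Krt8* had 5454 and 5542 normalized CPM in the control libraries and 11.6 and 7.49 in those of DMBA+TAM, from 22 and 17 reads. The log2 fold change was -9.18 (SE 0.25, adjusted p = 8.95e-09, edgeR's quasi-likelihood test, adjusted by Benjamini-Hochberg over all 16179 genes tested, as for every adjusted p below unless another tool is named). *Krt19* went from 1821 and 1676 normalized CPM to 7.39 and 7.05, a log2 fold change of -7.92 (SE 0.23, adjusted p = 1.01e-08). Both DMBA+TAM libraries lay far below every other library for these genes.

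*Krt20* had 3068 and 3421 normalized CPM in the control libraries, and 5.81 and 0.441 in those of DMBA+TAM, from 11 reads and 1 read. Its log2 fold change was -10.11 (SE 0.52, adjusted p = 1.31e-07), or -12.83 without DMBA+TAM replicate 1 and -9.15 without replicate 2, so the size of this fall rests on which library is read. *Krt18* and *Krt7*, at 229 and 235 and at 69.1 and 59.3 normalized CPM in control, were each left with 3 reads and 1 read. By the ratio of scaled reads, *Krt18* was 242-fold lower (95% exact interval for counting error only, 94.3 to 887; adjusted p = 2.31e-07) and *Krt7* 67.0-fold lower (26.1 to 246; adjusted p = 2.4e-07). The fitted log2 fold change of *Krt18* was -9.02 without DMBA+TAM replicate 1 and -7.21 without replicate 2, and that of *Krt7* was -7.17 and -5.35. *Krt23* had 20 and 22 reads in control, and 0 and 1 in DMBA+TAM. It was 10.2-fold lower (1.73 to 412; adjusted p = 0.00428), with an adjusted p of 0.0514 by DESeq2 and fitted log2 fold changes of -2.47 and -7.43 without DMBA+TAM replicate 1 and 2. The direction was the same in every one of these fits.

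*Krt10* did not follow. It had 4.18 and 4.58 normalized CPM in the control libraries and 4.22 and 3.52 in those of DMBA+TAM, from 8 reads in each, and the groups overlapped (log2 fold change -0.18, SE 0.31, adjusted p = 0.689, or 0.31 with scaling by library size only). *Krt14* had 1 and 2 reads in control and 2 and 0 in DMBA+TAM, and a difference was not detectable at this depth (log2 fold change 1.39, SE 1.86, adjusted p = 0.538). *Krt5* had at most 6 reads in any library and did not pass the filter on low counts.

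Of all genes tested, 64.3% were called between DMBA+TAM and control, and 35.3% were lower in DMBA+TAM. The same 6 keratins were lower than in DMBA (55.1% of all genes called), TAM long (55.2%) and TAM short (63.1%). The median log2 fold change of the 8 keratins against control was -6.96 and that of all genes tested was -0.17. These comparisons share the DMBA+TAM libraries. For *Krt8* the log2 fold changes were -9.16 when set against DMBA, -9.23 when set against TAM long and -9.54 for TAM short, each with an SE of 0.25 or 0.26.

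All 10 epithelial genes without keratins also fell in DMBA+TAM, with a median log2 fold change of -9.19. Beside these genes the loss of *Krt8* was of like size: it had 40.4 to 64.8 reads for every 100 reads of the 10 genes in the 8 libraries, and 62.9 and 47.2 in DMBA+TAM. *Krt19* had 12.2 to 32.5 in the 8 libraries and 40.0 and 44.4 in DMBA+TAM. The figures for *Krt20* were 12 to 26.4 in the 8 libraries and 31.4 and 2.78 in DMBA+TAM. *Krt10* was at 0.0319 to 0.0522 in the 8 libraries and 22.9 and 22.2 in DMBA+TAM, and *Krt7* at 0.432 to 1.2 and then 8.57 and 2.78, so both DMBA+TAM libraries were above the others for these genes and for *Krt19*. *Krt18*, *Krt20*, *Krt5*, *Krt14* and *Krt23* were each above their range in 1 DMBA+TAM library, on few reads. The denominators in DMBA+TAM were only 35 and 36 reads, and no test was run on these ratios.

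**Figure D3:**
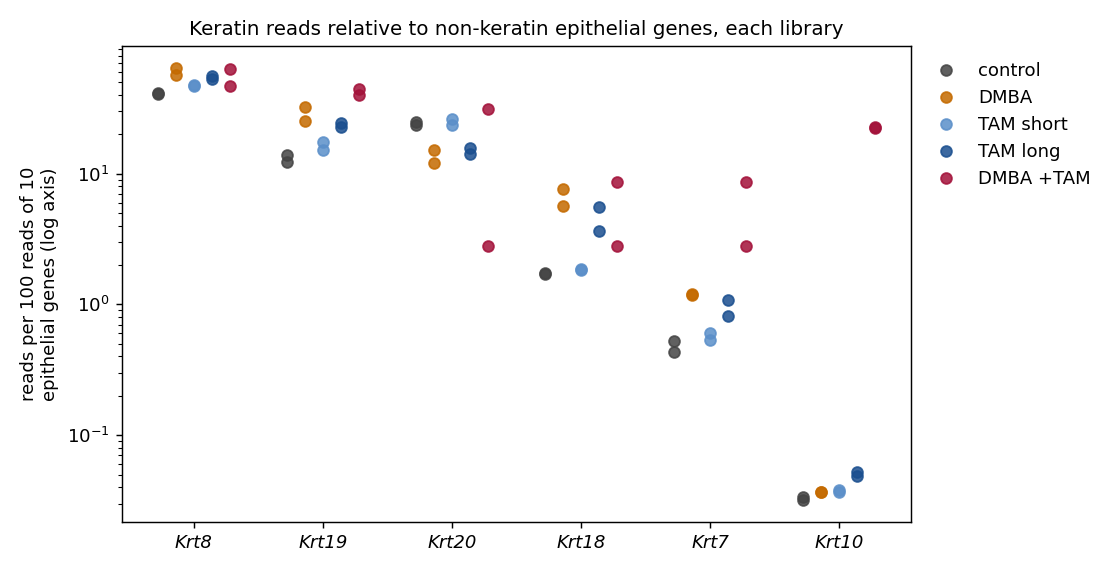
Reads of 6 keratin genes for every 100 reads of the 10 epithelial genes without keratins, on a log axis, a point for each library coloured by group. *Krt8* keeps a ratio of 40.4 to 64.8 in the 8 libraries other than DMBA+TAM and 47.2 to 62.9 in DMBA+TAM, whereas *Krt10* moves from at most 0.0522 to at least 22.2.

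Between DMBA and control 4 of the 8 tested keratins differed: *Krt18*, *Krt7* and *Krt19* were higher in DMBA and *Krt20* was lower. *Krt18* had 229 and 235 normalized CPM in control and 496 and 702 in DMBA, a log2 fold change of 1.37 (SE 0.24, adjusted p = 0.00128). *Krt20* had 3068 and 3421 in control and 1315 and 1103 in DMBA, a log2 fold change of -1.42 (SE 0.32, adjusted p = 0.00493). Groups did not overlap for these genes, and both calls held in every alternative that was run. *Krt7* went from 69.1 and 59.3 normalized CPM to 103 and 110 (log2 fold change 0.73, SE 0.16, adjusted p = 0.00522, but 0.0728 without control replicate 2). *Krt19* went from 1821 and 1676 to 2841 and 2303 (0.56, SE 0.16, adjusted p = 0.0164). Its adjusted p was 0.0624 without control replicate 1, 0.121 without control replicate 2, 0.0753 without DMBA replicate 1 and 0.0745 with only these groups in the fit. With control replicate 2 left out, 2 of the 4 calls were kept, those of *Krt18* and *Krt20*.

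*Krt8* had 5454 and 5542 normalized CPM in control and 5656 and 5200.3 in DMBA, with overlapping groups (log2 fold change -0.02, SE 0.17, adjusted p = 0.941, or 0.30 with scaling by library size only, a scaling that moved the median of all genes by 0.31). *Krt23* was at 2.26 and 2.65 normalized CPM in control and 3.93 and 3.37 in DMBA (0.57, SE 0.34, adjusted p = 0.19), and *Krt10* was at 4.18 and 4.58 and at 3.21 and 3.37 (-0.41, SE 0.25, adjusted p = 0.207). Of all genes tested, 47.8% were called between DMBA and control, and 4 of 8 keratins is near this share. For every 100 reads of the 10 epithelial genes, *Krt8* had 41.6 and 40.4 reads in control and 64.8 and 56.8 in DMBA, *Krt18* had 1.75 and 1.71 and then 5.68 and 7.66, and *Krt20* had 23.4 and 24.9 and then 15.1 and 12. The sum of these 10 genes was itself lower in DMBA (8729.8 to 9163 normalized CPM, against 13109.6 to 13714 in control). Of the 10, 3 were called lower and 3 higher, and *Vil1* went from 3927 ± 143 to 763 ± 88.7 (SD, n = 2). The higher ratio of *Krt8* thus came with a lower denominator. The DMBA libraries also stood apart in the small intestine sum (297 to 689 normalized CPM) and in a sum of 6 smooth muscle genes (7159.6 to 12073, against 1758 to 2075 in control), and the part of either in these changes was not tested.

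TAM long had the same genes in the same directions, with *Krt23* and *Krt14* besides. *Krt18* was at 370 and 592 normalized CPM in TAM long (log2 fold change against control 1.05, SE 0.24, adjusted p = 0.00558). *Krt20* was at 1426 and 1677 (-1.06, SE 0.32, adjusted p = 0.0203, and 0.0823 with scaling by library size only). *Krt7* was at 110 and 86.5 (0.62, SE 0.16, adjusted p = 0.0125) and *Krt19* at 2297 and 2634 (0.50, SE 0.16, adjusted p = 0.0282). In each of these genes both TAM long libraries lay on the same side of both control libraries.

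*Krt23* had 64 and 68 reads in TAM long against 20 and 22 in control, which was 5.52 and 6.68 normalized CPM against 2.26 and 2.65 (log2 fold change 1.31, SE 0.33, adjusted p = 0.00935). *Krt14* had 20 and 17 reads against 1 and 2, a 9.71-fold higher level by the ratio of scaled reads (95% exact interval for counting error only, 3.08 to 49.2; adjusted p = 0.0382, and 0.0717 by DESeq2). *Krt8* was at 5373 and 5974 normalized CPM in TAM long (0.05, SE 0.17, adjusted p = 0.847). Here 46% of all genes tested were called, and 6 of 8 keratins were. These calls depended on single libraries. Without control replicate 1 only *Krt7* was called, without control replicate 2 only *Krt18*, without TAM long replicate 2 only *Krt7*, and without TAM long replicate 1 *Krt18*, *Krt19* and *Krt23*. The 6 directions did not change in any alternative run. TAM long also stood apart from control in the small intestine sum (872 to 934 normalized CPM, against 22556 to 23117). The smooth muscle sum was 8362 to 12836, against 1758 to 2075 in control. The part of either sum in these keratin changes was not tested.

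**Figure D4:**
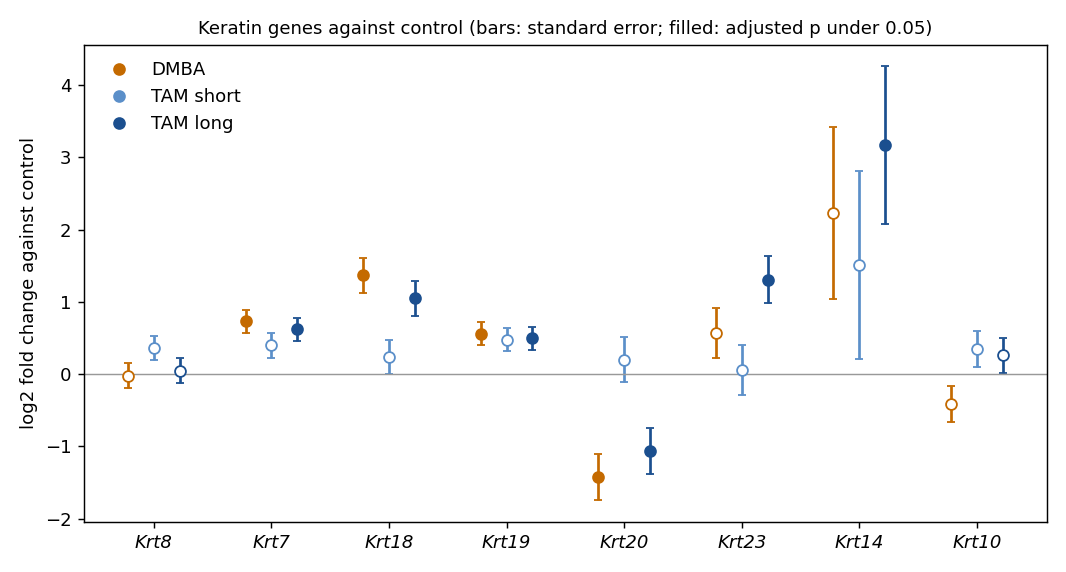
Log2 fold change against control of the 8 tested keratin genes in DMBA, TAM short and TAM long, with bars for the standard error and filled points for an adjusted p under 0.05 (edgeR). *Krt18* is at 1.37 in DMBA and 1.05 in TAM long and *Krt20* at -1.42 and -1.06, while no point of TAM short is filled.

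TAM short had 0 of 8 keratins called against control by edgeR, where 14.3% of all genes were called. *Krt7* and *Krt19*, 2 of the 8, had an unadjusted p under 0.05. *Krt19* was at 2239.7 and 2638 normalized CPM (log2 fold change 0.48, SE 0.16, adjusted p = 0.0741) and *Krt7* at 78.7 and 90.7 (0.40, SE 0.17, adjusted p = 0.143). *Krt8* was at 6868 and 7250.3, above both control libraries (0.36, SE 0.17, adjusted p = 0.195). *Krt20* was at 3890.4 and 3558 (0.20, SE 0.31, adjusted p = 0.734) and *Krt18* at 270 and 279 (0.24, SE 0.24, adjusted p = 0.557). The count depended on the model, since DESeq2 called *Krt8* and *Krt19*, edgeR without the filter on low counts called *Krt19*, and edgeR with only these groups called *Krt7*, *Krt8*, *Krt18* and *Krt19*. The small intestine genes *Fabp6* (log2 fold change 12.38, adjusted p = 1.67e-05) and *Lct* (-9.45, adjusted p = 3.59e-05) differed between the same groups, and their part in the keratin levels was not tested.

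Set directly against TAM short, TAM long had higher *Krt18* (log2 fold change 0.81, SE 0.24, adjusted p = 0.0213) and *Krt23* (1.24, SE 0.33, adjusted p = 0.0131) and lower *Krt20* (-1.26, SE 0.32, adjusted p = 0.0103). These were 3 of 8 keratins, where 42.2% of all genes were called. Without either TAM short library none of the 3 was called, without TAM long replicate 1 *Krt20* was not called, and without TAM long replicate 2 only *Krt20* was. Between TAM long and DMBA, 0 of 8 keratins were called by edgeR or DESeq2, where 2.7% of all genes were called by edgeR, and 2 keratins had an unadjusted p under 0.05. These were *Krt23*, with a log2 fold change of 0.73 (SE 0.31, adjusted p = 0.234), and *Krt10*, with 0.67 (SE 0.25, adjusted p = 0.174). Among the groups other than DMBA+TAM, those that had more *Krt18* and less *Krt20* were those with an L in their library names and high colon markers. In DMBA+TAM, whose library names begin with Lgr5, both keratins and the colon sum (6.86 to 7.05 normalized CPM) were low.

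The DMBA by TAM long interaction is the difference between DMBA+TAM and TAM long, less the difference between DMBA and control, where gut segment and treatment cannot be told apart. It was past the threshold for 6 of 8 keratins and for 48.2% of all genes tested. For *Krt8* it was -9.21 on the log2 scale (SE 0.29, adjusted p = 3.04e-08) and for *Krt19* -8.97 (SE 0.28, adjusted p = 3.04e-08). *Krt10* was at -0.03 (SE 0.40, adjusted p = 0.966). *Ppp2r1a*, the targeted gene, was at -0.66 (SE 0.16, adjusted p = 0.0072).

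The balance of the types was steady where epithelial RNA was present. The summed FPKM of type I over that of type II was 1.18 in both control libraries, 1.23 and 1.16 in DMBA, 1.17 and 1.16 in TAM short, and 1.10 and 1.18 in TAM long. In DMBA+TAM it was 1.95 and 2.10, from 63 and 46 keratin reads. With the lengths listed in the table it ran from 0.822 to 0.976 in the 8 libraries and was 1.68 and 1.57 in DMBA+TAM, so which type is in excess in the 8 libraries depends on the length used. *Krt80*, a type II gene outside the 9, had 6.37 ± 1.51 FPKM in DMBA+TAM, and over all 51 keratin genes the deposited FPKM gave 1.08 and 0.985 there.

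The ratio of *Krt8* to *Krt18*, the classic pair of simple epithelium, did move. It was 18.4 and 18.3 in control and 19.7 and 20.1 in TAM short, against 8.85 and 5.75 in DMBA and 11.3 and 7.82 in TAM long. The lengths of both genes are the same on both scales. The 4 libraries of DMBA and TAM long all lay below the 4 of control and TAM short. *Krt20* over *Krt19* was 0.859 and 1.04 in control, 0.885 and 0.687 in TAM short, 0.236 and 0.244 in DMBA, and 0.316 and 0.324 in TAM long.

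**Figure D5:**
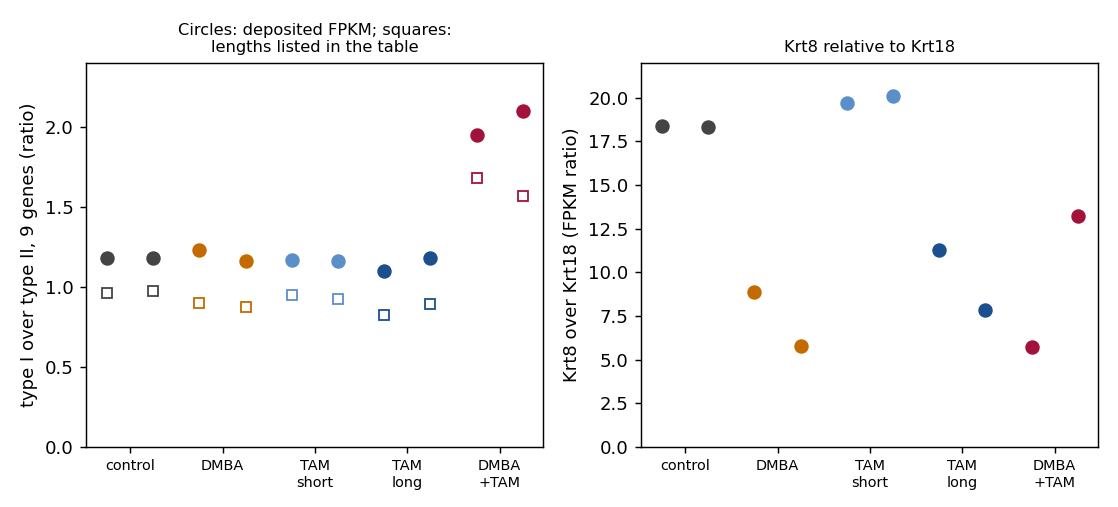
Left, summed type I over summed type II level of the 9 keratin genes in each library, from the deposited FPKM (circles) and with the lengths listed in the table (squares). Right, *Krt8* over *Krt18* (FPKM ratio), at 18.3 to 20.1 in control and TAM short and 5.75 to 11.3 in DMBA and TAM long.

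Reads of the basal keratins *Krt5* and *Krt14* were few in every library, at most 6 and 20, while *Krt10* had 30 to 61 in the 8 deeper libraries. *Krt5* had 1 and 0 reads in control, 6 and 2 in DMBA, 1 and 0 in TAM short, 1 and 3 in TAM long, and 0 and 1 in DMBA+TAM. A level of 3 reads over a group stood for 0.138 to 0.179 normalized CPM in the 4 deeper groups and 0.72 in DMBA+TAM. *Krt14* had 3 and 14 reads in DMBA and 8 and 1 in TAM short, so replicates differed more than these groups did. A list of 13 stratified squamous genes without keratins summed to 7.35 to 10.8 normalized CPM in control, 76.8 to 82.8 in DMBA, 52.9 to 53.6 in TAM short, 115 to 137 in TAM long and 64.4 to 76.2 in DMBA+TAM. Of its 7 tested genes, 3 were higher and 0 lower than control in DMBA and likewise in TAM long, with 2 and 0 for TAM short and 4 and 2 for DMBA+TAM. The 4 of DMBA+TAM cannot be set against all genes. *Trp63*, *Krtdap* and *Lgals7*, which are among them, passed the filter on low counts only through their DMBA+TAM reads. Of all genes tested, 24.5% were higher and 23.3% lower in DMBA, with 23.2% and 22.8% for TAM long, 6.52% and 7.8% for TAM short, and 29% and 35.3% for DMBA+TAM. *Serpinb5* and *Sprr1a* led in DMBA (53.4 ± 1.94 and 18.6 ± 1.85 normalized CPM, SD, n = 2) and TAM long (80.1 ± 11.9 and 37.4 ± 4.36), from 1.69 ± 0.172 and 0.591 ± 0.356 in control, and both had no reads in DMBA+TAM. The 4 that rose in DMBA+TAM were *Sbsn* (7 and 10 reads in control, 93 and 143 in DMBA+TAM), *Trp63* (1 and 2, then 17 and 4), *Krtdap* (0 and 0, then 7 and 13) and *Lgals7* (4 and 1, then 3 and 8). Apart from *Sbsn*, these genes had at most 4 reads in any library outside DMBA+TAM, so they were tested only because of their reads there. *Trp63* was at 0 in TAM short and TAM long, *Dsg3* in TAM long and DMBA+TAM, and *Krtdap* was at 0 in control, TAM short and TAM long. *Dsg3* had at most 1 read in any library, so its zeros say little. The part of this list in the level of *Krt14* was not tested. Of 7 mesothelium genes, another source of keratins, 5 were at 0 in both DMBA+TAM libraries (*Msln*, *Upk3b*, *Upk1b*, *Lrrn4* and *Bnc1*), and the list summed to 11.6 and 15.0 normalized CPM there and to 14.4 to 32.3 elsewhere. The other members were *Wt1*, which rose from 0.565 and 0.361 normalized CPM in control to 9.5 and 9.25 in DMBA+TAM (log2 fold change 4.29, SE 0.71, adjusted p = 0.000454), and *Gpm6a*, at 2.83 and 5.06 and then 2.11 and 5.73 (0.04, SE 0.51, adjusted p = 0.96). Their part in the keratin levels was not tested. *Bnc1*, at 0.358 ± 0.346 normalized CPM in control, did not pass the filter on low counts. That level is below the 0.72 of 3 reads in DMBA+TAM, so its absence there says little.

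Of the 42 other keratin genes, 6 passed the filter on low counts. *Krt17*, a chain of stressed and wounded epithelium, had no reads in control or DMBA+TAM, 173 and 67 reads in DMBA, 16 and 9 in TAM short, and 89 and 127 in TAM long. Against 3 reads over the control group this was at least 68.2-fold higher in DMBA (adjusted p = 0.000191), 8.52-fold in TAM short (adjusted p = 0.0201) and 56.7-fold in TAM long (adjusted p = 0.000241). *Krt84* also had no reads in control or DMBA+TAM and was at least 23.6-fold higher in DMBA (adjusted p = 0.00575), 19.8-fold in TAM short (adjusted p = 0.0224) and 19.4-fold in TAM long (adjusted p = 0.00755). Both genes passed the filter on low counts only through libraries of DMBA, TAM short and TAM long. They were thus tested only because of their reads in the groups called higher, which limits these p-values. *Krt12*, which lies 6143 bases from *Krt20*, was at 5.99 and 7.71 normalized CPM in control, 1.34 and 1.01 in DMBA, 15.7 and 15.5 in TAM short, and 5.26 and 6.29 in TAM long. It fell in DMBA (log2 fold change -2.51, SE 0.30, adjusted p = 0.000199) and rose in TAM short (1.19, SE 0.24, adjusted p = 0.0132), and its absence of reads in DMBA+TAM put it at least 9.47-fold lower there, relative to control (adjusted p = 5.83e-05).

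*Krt80* was higher than control in DMBA (log2 fold change 2.43, SE 0.56, adjusted p = 0.00605), TAM long (2.92, SE 0.55, adjusted p = 0.00202) and DMBA+TAM, and its interaction was not called (-1.22, SE 0.73, adjusted p = 0.197). It had 3 and 6 reads in control and 21 and 18 in the far smaller DMBA+TAM libraries, which was 0.339 and 0.723 against 11.1 and 7.93 normalized CPM (log2 fold change 4.13, SE 0.58, adjusted p = 0.000138). It was also higher than in DMBA (1.70, SE 0.47, adjusted p = 0.0118) and TAM long (1.21, SE 0.46, adjusted p = 0.0465). Low in control, *Krt80* passed the filter on low counts only through DMBA, TAM long and DMBA+TAM. These are the groups called higher than control, which limits those p-values. *Krt83*, with 14 reads in control and none in DMBA+TAM, was lower (adjusted p = 0.0258), by at least 1.13-fold. *Krt222* went from 1.29 ± 0.222 normalized CPM to 0.484 ± 0.0617 (SD, n = 2; adjusted p = 0.201).

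Genes that anchor keratin filaments at desmosomes fell with the keratins. Against control, 9 of 11 desmosome and plakin genes tested fell in DMBA+TAM and 1 rose, with a median log2 fold change of -4.20, where 35.3% of all genes tested were lower and 29% higher. *Dsp*, desmoplakin, which ties keratin filaments to the desmosome, had 397 and 399 normalized CPM in control, and 1 and 2 reads in DMBA+TAM. *Dsg2*, the desmosomal cadherin of simple epithelium, was at 498 ± 23.8 normalized CPM in control and had no reads in DMBA+TAM. *Plec*, plectin, a linker also made outside epithelium, was at 738 ± 102 and 411 ± 103 (log2 fold change -0.84, SE 0.20, adjusted p = 0.00437). The exceptions were *Dst*, dystonin, which was higher (135 and 129 against 267 and 291 normalized CPM, log2 fold change 1.08, SE 0.17, adjusted p = 0.000255), and *Ppl*, periplakin, which was not called (-0.89, SE 0.41, adjusted p = 0.0857). In DMBA, 3 of the 11 were higher and 4 lower than in control, where 24.5% of all genes tested were higher and 23.3% lower. In TAM long 3 were higher and 1 lower (23.2% and 22.8% of all genes), and in TAM short 3 and 0 (6.52% and 7.8%). The count of higher genes in DMBA and TAM long is near the share of all genes.

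Of 11 other intermediate filament genes, 8 were higher in DMBA than in control and 1 lower, with 7 and 1 for TAM long, 1 and 0 for TAM short, and 4 and 3 for DMBA+TAM. Of all genes tested, 24.5% were higher and 23.3% lower in DMBA, with 23.2% and 22.8% for TAM long, 6.52% and 7.8% for TAM short, and 29% and 35.3% for DMBA+TAM, so the counts of TAM short and DMBA+TAM are near the share of all genes. *Vim*, vimentin, the filament of mesenchymal cells, had 48.8 and 54.9 normalized CPM in control, 152 and 126 in DMBA, 83.5 and 81.5 in TAM short, 135 and 160 in TAM long, and 1695 and 1536 in DMBA+TAM (log2 fold change of the last 4.96, SE 0.17, adjusted p = 1.73e-08). *Des*, desmin, the filament of muscle, was at 236 ± 22.2 normalized CPM in the control libraries, 1404 ± 539 with DMBA and 1621 ± 534 in TAM long (SD, n = 2), and *Synm*, synemin, at 179 ± 29.2, 585 ± 231 and 603 ± 214. *Lmnb1*, a nuclear lamin, was the gene that fell in DMBA and TAM long (log2 fold changes -0.87 and -0.95, adjusted p = 0.000245 and 0.000155). A list of 6 smooth muscle genes, which also holds *Des*, summed to 1209 to 2280.2 normalized CPM in control and TAM short and 7159.6 to 12836 in DMBA and TAM long. Its part in these levels was not tested.

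Genes of surface enterocytes did not all follow *Krt20*. Of 9 such genes, *Krt20* included, 4 were higher and 5 lower in DMBA than in control, and likewise 4 and 5 in TAM long, where 47.8% and 46% of all genes tested were called in either direction. This list shares *Alpi* with the small intestine list and *Slc26a3* with the colon list. Gut segment and treatment cannot be told apart in these comparisons. *Anpep*, an aminopeptidase of the enterocyte brush border, was at 9760.5 ± 1302 normalized CPM in control, 6.72 ± 2.56 in DMBA, 6119 ± 439 in TAM short and 5.87 ± 1.21 in TAM long. *Ceacam1*, an adhesion molecule of the apical surface, moved the other way, at 796 ± 92.9, 4134 ± 61.0, 2781 ± 227 and 6207 ± 189. *Slc26a3*, the chloride exchanger of the colon surface, was at 286 ± 24.4, 658 ± 227, 187 ± 7.11 and 790 ± 370. In DMBA+TAM all 9 fell relative to control, as did 35.3% of all genes tested. *Anpep*, at 69 ± 12.2 normalized CPM there, was nonetheless higher than in DMBA (log2 fold change 3.37, adjusted p = 5.81e-06). It was also higher than in TAM long (3.54, adjusted p = 3.94e-06). The other 8 genes were lower than in each of these groups.

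The genes whose pattern over the 10 libraries was most like that of each tested keratin were found by Pearson's r of log2(normalized CPM + 1). The nearest to *Krt8* were *Lgals4*, *Cgn* and *Myo15b* (r = 0.999 each) and the nearest to *Krt19* were *Cldn3* (0.999), *Dsp* and *Prr15l* (both 0.998). For *Krt20* they were *Cdhr2*, *Arhgef16* and *Spint1* (0.997 each), for *Krt18* *Sema4g* (0.998), *Fermt1* and *Nipal2* (both 0.997), and for *Krt7* *Nr5a2*, *Tmem30b* (both 0.997) and *Muc3* (0.995). For *Krt23* they were *Cdc14a* and *Acvr1b* (0.986 each) and *Tcf21* (0.985), for *Krt10* *Jrkl* (0.967), *Lrif1* (0.932) and *Rp2* (0.930), and for *Krt14* *Ermn* (0.927), *Hrsp12* (0.914) and *Emc3* (0.894). The libraries fall into separate clusters, and how far DMBA+TAM sets these values differs between genes. Over the other 8 libraries, a set chosen after the values were seen, r between *Krt8* and *Lgals4* was 0.483. It was 0.854 between *Krt8* and *Cgn* and 0.781 between *Krt8* and *Myo15b*. For the 3 genes nearest to *Krt20* r was 0.904 to 0.976 there, and for those nearest to *Krt18* 0.887 to 0.964. For the 3 genes nearest to *Krt7* r was 0.718 to 0.811 there, and for those nearest to *Krt19* 0.751 to 0.922. It was 0.929 to 0.947 for *Krt23*. For *Krt10* (0.931 to 0.980) and *Krt14* (0.934 to 0.960), DMBA+TAM did not set the values. Over these 8 libraries r was -0.887 between *Krt18* and *Krt20* and 0.732 between *Krt18* and *Krt7*, where over all 10 it was 0.946 and 0.993. These are descriptions over libraries that share depth and gut segment markers within their groups.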

How the data were processed

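Poly-A RNA of 10 organoid libraries was analysed. The authors mapped reads with TopHat v2.0.12, counted reads per gene with HTSeq v0.6.1 and derived FPKM; the build is GRCm38.p6 in the submitters' processing notes, and whether counting used strand is not given in the sources used here. The deposited table holds raw counts and FPKM of each library, gene positions, and columns of the authors' own comparisons (fold changes and p-values), which were not used. The deposited FPKM use the total count of the library and, for *Krt7*, *Krt19* and *Krt14*, another gene length than the one listed. Groups were taken from the labels.

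The test used edgeR 4.0.16 (R 4.3.3). Low counts were removed by filterByExpr, libraries scaled by TMM, and 1 quasi-likelihood model of the 5 group means fitted to all 10 libraries; p-values were adjusted by Benjamini-Hochberg over 16179 genes, with a threshold of 0.05. SE is the absolute log2 fold change over the root of F. Alternatives were each library left out in turn, a replicate block, a fit to the compared groups alone, every gene kept, scaling by library size alone, and DESeq2 1.42.0. The steps were tested on simulated data. Genes were named by rule: the 9 keratins, other keratins past the filter, the 3 most abundant genes of each list with the exceptions to its count, and the 3 genes most like each keratin; further marker genes (those at 0, *Trp63*, *Krtdap*, *Lgals7*, *Wt1*, *Lct* and *Apoa4*) were named after their values were seen. The keratins and lists were chosen with earlier results of these data known. Promoters came from RefSeq and exons from GENCODE M21. Tables used Python 3.11.15, pandas 2.3.3 and NumPy 2.4.6, intervals SciPy 1.17.1 and figures matplotlib 3.10.9. Totals were 8828247 to 10923673 reads in 8 libraries and 1592366 and 1915270 in DMBA+TAM, where no keratin of the 9 had more than 22 reads. Intervals and floors cover counting error only.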

Additional observations from a re-analysis of the deposited data

Results flagged for a closer look

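The DMBA by TAM long interaction was past the threshold for 6 of 8 keratins in edgeR's quasi-likelihood fit, and for 48.2% of all genes tested. It subtracts the difference between DMBA and control, where gut segment and treatment cannot be told apart, so it is not a measure of the response to DMBA alone. On the log2 scale the difference was -10.31 for *Krt18* (adjusted p = 2.92e-07), -9.21 for *Krt8*, -8.97 for *Krt19*, -7.62 for *Krt20* (adjusted p = 4.54e-06), -7.38 for *Krt7* and -5.16 for *Krt23* (adjusted p = 0.000452). The 2 DMBA+TAM libraries were the lower ones for all 6 genes. Without DMBA+TAM replicate 1 the difference was -10.29 for *Krt20*, -11.39 for *Krt18*, -8.46 for *Krt7* and -4.30 for *Krt23*, and without replicate 2 it was -6.61, -9.58, -6.65 and -9.26. All of these stayed past the threshold. The sum of 10 epithelial genes without keratins moved with these values, at 15.9 and 18.5 normalized CPM in DMBA+TAM, and its part in them was not tested.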

How the results depend on the processing

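Of 747 values of single keratins under the alternatives, 678 kept direction and side of the threshold, 35 lost the call, 10 gained one and 24 changed sign. Leaving out a library left its group with 1 sample, assumed to vary like the others. It gave 1 to 3 keratins called for TAM long against control (6 with all libraries), 2 to 4 for DMBA against control (4) and 0 to 2 for TAM long against TAM short (3). For TAM short against control (0), DESeq2 called 2, edgeR without the filter 1 and with only these groups 4; the cause was not tested. The replicate block changed the direction or call of none of 80 values. Deviations of same-numbered libraries correlated at -0.038 to 0.233. Such correlations cannot show whether the numbers pair the samples, and the labels do not say so.

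Sign changes concerned log2 fold changes that were not called. With a library left out, *Krt14* ran from -5.25 to 1.79 for DMBA+TAM against TAM short (0.95 without DMBA+TAM replicate 2; 0.00 by DESeq2, 0.27 by library size), from -5.95 to 0.80 against DMBA and from -3.73 to 2.47 against control, and from -0.43 to 2.27 for TAM short against control. *Krt10* ran from -0.14 to 0.12 for the interaction (0.04 by DESeq2), and by library size was at 0.31 for DMBA+TAM against control and 0.13 for TAM long against TAM short. *Krt8* ran from -0.11 to 0.03 for DMBA against control (0.30 by library size), from -0.04 to 0.11 for TAM long against control and from -0.02 to 0.14 against DMBA. *Krt19* ran from -0.10 to 0.13 for TAM long against TAM short (-0.01 without the filter) and from -0.20 to 0.10 against DMBA. *Krt23* ran from -0.05 to 0.18 for TAM short against control, and *Krt7* from -0.30 to 0.05 for TAM long against DMBA. The cause was not tested.

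With the listed lengths, a choice added after the data were seen, shares of *Krt8* were 50.6% in control, 52.5% in DMBA, 51.4% in TAM short, 53.5% in TAM long and 35.8% in DMBA+TAM. In the first 4 groups they were 27.9%, 10.9%, 25.5% and 13.7% for *Krt20*, 18.4%, 28.4%, 20.3% and 26.6% for *Krt19*, and 0.26%, 0.456%, 0.271% and 0.413% for *Krt7*, with 2.75% (control) and 2.58% (TAM short) for *Krt18*. The type I to type II ratio was 0.968, 0.887, 0.936, 0.857 and 1.62.

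Over all genes, TAM long against DMBA gave 437 calls, 849 by DESeq2, 1615 without the filter, 29 with only these groups and 58 to 1036 with a library left out. TAM short against control gave 2317, then 4317 with only these groups and 669 to 1057 with a library left out. TAM long gave 7444 against control (4946 to 5573 with a library left out) and 6835 against TAM short (4258 to 5017). Scaling by library size moved the median of all genes by 0.31 in DMBA, 0.08 in TAM short, 0.32 in TAM long and 0.48 in DMBA+TAM against control, and the share of calls that were higher from 51.2% to 71.2%, 45.5% to 58.6%, 50.5% to 72.1% and 45.1% to 62.5%. Depth limits DMBA+TAM most, where 3 reads over the group stand for 0.72 normalized CPM.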
